A study of Papio anubis with 588 samples.

Results

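The same gene was followed in liver, muscle and adipose tissue of single animals, to separate variation between animals that several tissues share from variation that stays in one tissue. The members were the animals of the quality-controlled count table that had a library of each tissue at the baseline visit: 92 of the 99 animals, with 276 of the 570 libraries. Of the 34178 genes in that table, 7603 had a mean of at least 5 CPM (a gene's counts scaled to a common library total) in each tissue and were tested, among them 391 with provisional LOC names. The animals were captive olive baboons (Papio anubis). At the baseline visit (0 years) they ate a low cholesterol, low fat (LCLF) diet, and the biopsies were repeated after 2 years on a high cholesterol, high fat (HCHF) diet. The later biopsies served for comparison only: 84 animals had all 3 tissues at 2 years, and 78 had all 6 libraries. The labels used here give no sex, age or time of biopsy.

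Tissues of one animal share their genome, their sex and the hormones and nutrients in the blood. Liver, muscle and adipose tissue nevertheless use many of the same genes for different ends, such as fatty acid synthesis or oxidation. Signals that act on the whole animal can move a gene in several tissues at once, whereas cell makeup, fibre type and sampling differ tissue by tissue.

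Total counts ran from 6506614 to 36835097 per library, with a median of 19616002 in the liver libraries, 19076842 in those of muscle and 18300662 in those of adipose tissue. Hepatocyte markers held 17.9 to 29.6% of the counts of the liver libraries, skeletal myocyte markers 18.9 to 31.4% of those of muscle, and adipocyte markers 0.433 to 4.01% of those of adipose tissue. Libraries of 10 animals carried markers of another of these tissues above the limit set for doubt. The libraries were made in a pair of batches: the median total was 10322862 in batch 1 (15 of the 92 animals) and 19506503 in batch 2 (77 animals). Within batch 1, 26 of 45 libraries held almost no counts of RPS12, a ribosomal protein gene: its median was 1.06 CPM in 9 such liver libraries, against 129.5 CPM in the other 6 batch 1 liver libraries and 193 CPM in batch 2. GAPDH, a glycolytic enzyme gene, showed the same split, with medians of 7.01, 210.8 and 434 CPM in the same liver groups. The split ran by library, as 3 animals were low in all 3 tissues, 1 in none and 11 in 1 or 2, and 100 of the tested genes were lower in such libraries by at least 1 on the log2 scale; the cause was not tested. In muscle, 9 libraries, all of batch 2, stood apart on the first principal component, with the list of splicing kinases and L-type cyclins higher there by a median of 1.05 on the log2 scale. Totals themselves correlated between tissues after centring within batch, with a Spearman rho of 0.37 for liver and muscle, 0.48 for liver and adipose tissue and 0.23 for muscle and adipose tissue (within-batch permutation test, adjusted p = 0.0012, 9e-05 and 0.0452; Pearson r = 0.45, 0.46 and 0.21, adjusted p = 0.00246, 0.00201 and 0.211; r = 0.33, 0.42 and 0.17 without the 2 farthest animals; rho = 0.30, 0.34 and 0.19 within batch 1 and 0.49, 0.52 and 0.25 within batch 2). Per the labels' protocol, the samples of an animal went through extraction, library making and sequencing together, so that processing shared by an animal's tissues and biology shared by them cannot be told apart.

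Most genes varied at least slightly in parallel across tissues, and liver and adipose tissue were the closest pair. Over the 7603 genes the median Spearman rho was 0.19 between liver and muscle, 0.27 between liver and adipose tissue and 0.18 between muscle and adipose tissue. A positive correlation (rho above 0 with a Benjamini-Hochberg adjusted p under 0.05 over all genes and pairs, met from a rho of 0.24) was called for 2813 genes (37%) between liver and muscle, for 4286 genes (56.4%) between liver and adipose tissue, and for 2737 genes (36%) between muscle and adipose tissue. All 3 pairs were positive for 1431 genes (18.8%), exactly 2 pairs for 1424 and exactly 1 pair for 2695. Of the genes positive in a single pair, 1656 were so between liver and adipose tissue, 527 between liver and muscle and 512 between muscle and adipose tissue. A negative correlation in at least 1 pair was called for 75 genes (0.986%), and 1997 genes (26.3%) were called in no pair. In batch 2 alone the positive calls were 4058 (53.4%) between liver and adipose tissue and 1240 (16.3%) in all 3 pairs, 1140 of them shared with the calls over both batches. Without the 9 animals whose muscle library stood apart, 1228 genes were positive in all 3 pairs, and without the 10 animals in doubt 1123. In bulk tissue, fewer cells of a type and less RNA per cell cannot be told apart.

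**Figure D1:**
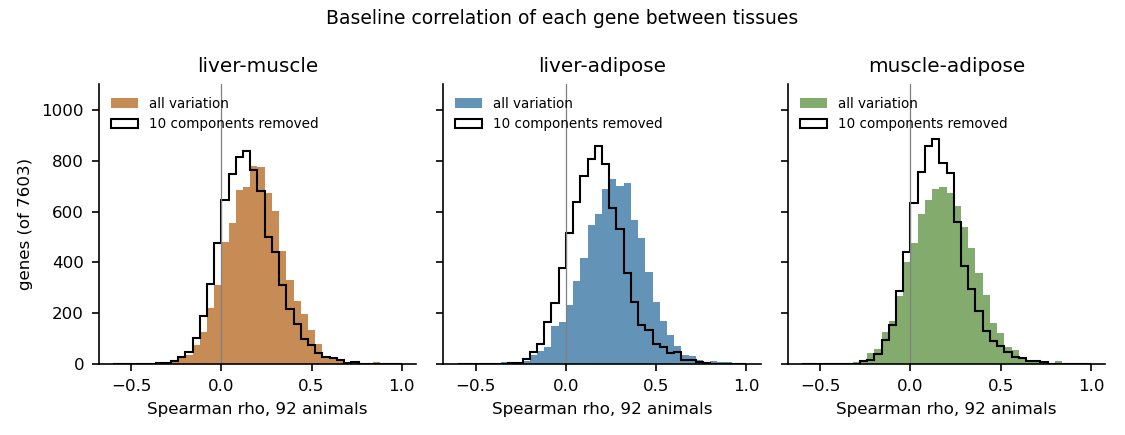
Histograms of the Spearman rho of each of 7603 genes across 92 animals for each tissue pair (x axis, rho; y axis, number of genes), with all variation (filled) and after the first 10 principal components of each tissue were removed (outline). The filled histograms centre above 0 in every pair, at medians of 0.19, 0.27 and 0.18, and the liver-adipose median is 0.17 with the components removed.

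Apart from sex-linked genes, the most strongly shared genes included metabolic and RNA-processing enzymes. They were picked for their high rho, so their baseline values are a description without a test. DGLUCY, a mitochondrial D-glutamate cyclase, had a lowest, median and highest level of 5.84, 13.8 and 26.0 CPM in liver, 7.97, 30.2 and 79.8 CPM in muscle and 13.6, 26.2 and 59.5 CPM in adipose tissue. Animals high in one tissue tended to be high in the others, with a rho of 0.72 for liver and muscle, 0.77 for liver and adipose tissue and 0.80 for muscle and adipose tissue. Within batch 1 these values were 0.59, 0.45 and 0.81, and within batch 2 0.72, 0.79 and 0.80. In the biopsies taken 2 years later on HCHF, which did not enter the choice, DGLUCY again gave 0.72, 0.81 and 0.77. CHCHD2, a small mitochondrial protein that also acts in transcription, spanned 2.2, 18.3 and 35.3 CPM in liver, 3.13, 41.2 and 109.7 CPM in muscle and 5.05, 27.5 and 64.0 CPM in adipose tissue. Its rho was 0.86, 0.83 and 0.83 for these pairs, in the same order, and 0.86, 0.80 and 0.84 at 2 years. PGGHG, a glucosidase of collagen's hydroxylysine-linked sugars, EEF1AKMT2, a methyltransferase of translation elongation factor 1A, and CPSF3, the nuclease that cuts pre-mRNA before polyadenylation, followed. The smallest rho of each was 0.69, 0.68 and 0.64, and the smallest at 2 years 0.75, 0.57 and 0.52. CPSF3 varied little in size despite its sharing: the SD between animals beyond counting error was 0.22 on the log2 scale in liver, against 0.47 for DGLUCY and 0.80 for CHCHD2. In all, 110 genes, 39 of them with LOC names, had a rho of at least 0.5 in every pair, and 79 of these also had a mean rho of at least 0.5 between one tissue at one visit and another tissue at the other visit.

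**Figure D2:**
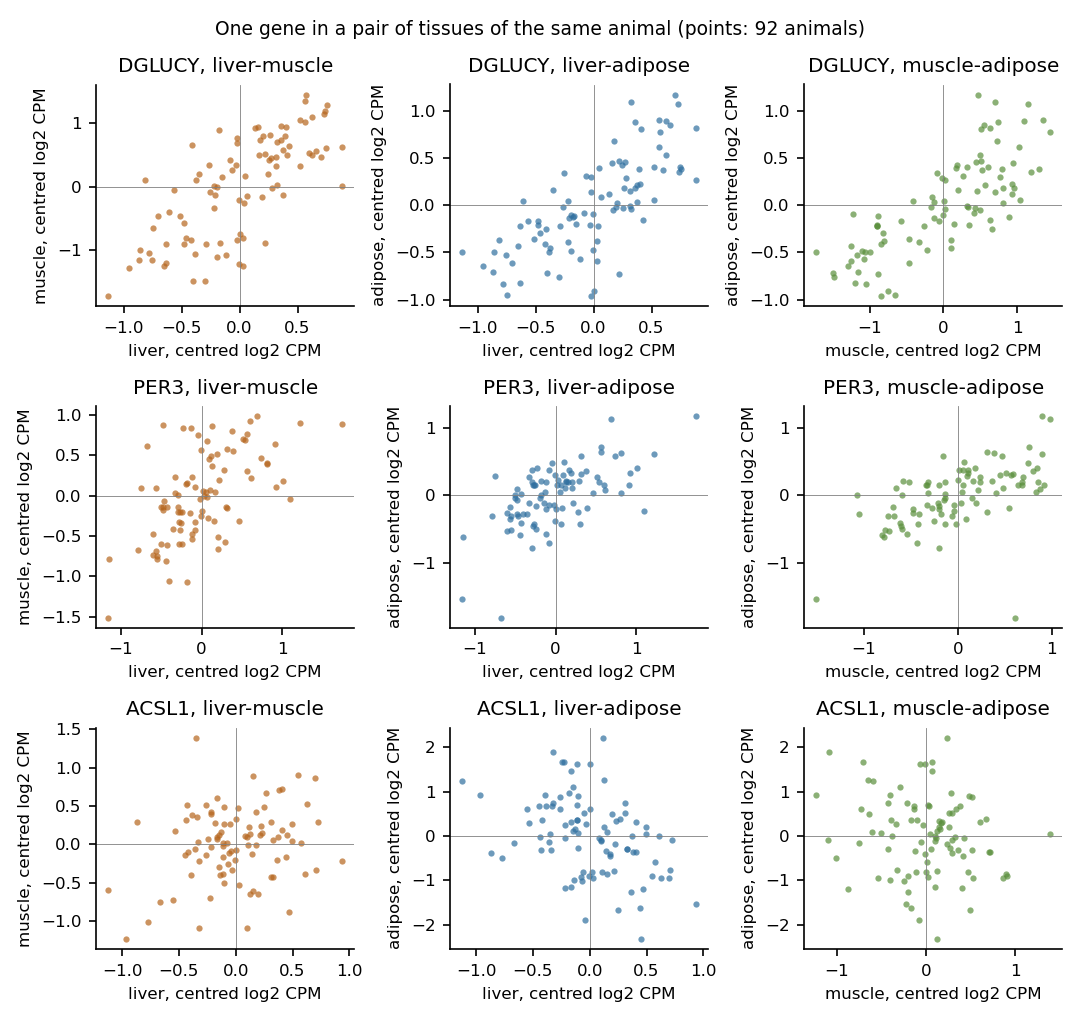
Batch-centred log2 CPM of DGLUCY, PER3 and ACSL1 (rows) in each pair of tissues (columns: liver-muscle, liver-adipose, muscle-adipose), 1 point per animal, 92 animals. DGLUCY and PER3 slope upward in every pair, and ACSL1 slopes downward between liver and adipose tissue (rho = -0.42).

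The Y-linked genes separated the animals most sharply. The 5 tested genes of the Y-linked list, DDX3Y, KDM5D, USP9Y, ZFY and RPS4Y1, split the animals into 54 with high and 38 with low levels, the same animals in all 3 tissues, so no correlation over all animals is given. RPS4Y1, a ribosomal protein gene of the Y chromosome, ranged from 106.3 to 256 CPM in liver of the 54 animals and reached 0.988 CPM at most in the other 38. Within the 43 high animals of batch 2, without a test, the liver-adipose rho was 0.67 for RPS4Y1 and 0.67 for KDM5D, a histone demethylase gene, but 0.27 for the RNA helicase gene DDX3Y and -0.028 for the deubiquitinase gene USP9Y. Of 11 tested X-linked genes known in human to escape X inactivation, 8 were positive in all 3 pairs, against 18.8% of all genes, and their median mean rho was 0.57, against 0.20 for all genes. EIF1AX, a translation initiation factor, had 0.65, 0.83 and 0.66, and KDM6A, which removes methyl groups from lysine 27 of histone H3 and was named whatever its result, had 0.63, 0.81 and 0.67 (Spearman test over all genes, largest adjusted p = 2.19e-09). With the mean level of the Y-linked genes as a covariate, 3 of the 11 were positive in all 3 pairs with a median of 0.20, KDM6A's smallest rho was -0.14 and EIF1AX's 0.11, while 1471 of all genes (19.3%) were positive in all 3. Of the whole of chromosome X, 44 of its 226 tested genes (19.5%) were positive in all 3 pairs, near the 18.8% of all genes.

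Circadian clock genes were positive above the gene-wide share in the pairs with muscle and in all 3 pairs, and near it between liver and adipose tissue. The clock is a feedback loop in which ARNTL (BMAL1) pairs with CLOCK or NPAS2 to drive PER, CRY, NR1D and DBP-family genes, which in turn repress the loop or pass its phase on. Of 15 tested clock genes, 10 were positive between liver and muscle, 9 between liver and adipose tissue, 9 between muscle and adipose tissue and 7 in all 3 pairs, against 37, 56.4, 36 and 18.8% of all genes. The median mean rho of the list was 0.35, against 0.20 for all genes. All 3 pairs were positive for 5 of the 15 without the 9 animals whose muscle library stood apart, and for 5 without the 10 animals in doubt. Of all genes 16.2 and 14.8% were positive in all 3 in these settings. PER3, a period protein, had a lowest, median and highest level of 15.8, 34.1 and 118 CPM in liver, 11.9, 33.8 and 67.6 CPM in muscle and 23.6, 89.8 and 187 CPM in adipose tissue. Its animals kept much of their order across tissues, with a rho of 0.56, 0.58 and 0.64 (Spearman test over all genes, adjusted p = 3.90e-07, 8.04e-08 and 8.03e-10; r = 0.58, 0.62 and 0.57, and 0.54, 0.57 and 0.53 without the 2 farthest animals; rho = 0.23, 0.70 and 0.51 within batch 1 and 0.60, 0.57 and 0.65 within batch 2). ARNTL, the activator, spanned 5.82, 37.6 and 60.1 CPM in liver, 1.57, 5.46 and 24.6 CPM in muscle and 2.83, 9.15 and 32.0 CPM in adipose tissue. It gave 0.57, 0.48 and 0.37, with adjusted p-values of 1.69e-07, 2.33e-05 and 0.00191 in the same test. NR1D1 (REV-ERBα), a repressor of ARNTL, had 0.41, 0.45 and 0.59, and PER1, another period protein, 0.33, 0.37 and 0.58. TEF and NR1D2, a clock output factor and the other REV-ERB, were also positive in all 3 pairs. DBP, an output factor, passed between liver and adipose tissue (0.43) and between muscle and adipose tissue (0.52) but had 0.19 between liver and muscle (adjusted p = 0.119), and PER2 passed in the pairs with muscle, at 0.38 and 0.48, with 0.20 between liver and adipose tissue. CLOCK passed only between liver and adipose tissue (0.35) and NPAS2 only between liver and muscle (0.27), and for the repressor CRY1 no pair passed, with 0.11, 0.11 and 0.14. CRY2 fell into 86 higher and 6 lower animals in muscle, and within the 86 its rho was 0.052, -0.16 and 0.035.

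ARNTL ran opposite to the clock genes it was compared with in most relations, within and between tissues. ARNTL was compared with PER1, PER2, PER3, NR1D1, NR1D2, DBP and TEF, a comparison chosen after the values of these genes were seen, over 63 relations. CRY1 and CRY2 were not included, so the counts do not describe all genes that ARNTL drives. Within a tissue, 20 of 21 relations were negative past the threshold (within-batch permutation test adjusted over the 63, under 0.05), with a median rho of -0.54. Between tissues, 37 of 42 were negative past it, with a median of -0.38, and 0 were positive past it. Liver ARNTL against adipose NR1D1 gave -0.70 (adjusted p = 2.52e-05; r = -0.66, adjusted p = 2.63e-05, and -0.66 without the 2 farthest; rho = -0.65 in batch 1 and -0.70 in batch 2). The 6 relations that did not pass all involved a liver gene: PER1 against ARNTL of each tissue, at 0.095, 0.058 and 0.037 for liver, muscle and adipose ARNTL, NR1D1 against muscle and adipose ARNTL, at -0.10 and -0.13, and DBP against muscle ARNTL, at -0.087. The smallest p that 100000 permutations can give is 1e-05.

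Heat shock genes were positive above the gene-wide share in the pairs with liver, and near or below it between muscle and adipose tissue. Immediate early genes were below that share in the pairs with liver and near it between muscle and adipose tissue. For the heat shock list, chaperones and co-chaperones that assist protein folding, 9, 10 and 4 of 14 were positive in the liver-muscle, liver-adipose and muscle-adipose pairs and 3 in all 3, with a median mean rho of 0.31 (of all genes 37, 56.4 and 36% were positive in the pairs and 18.8% in all 3). Between muscle and adipose tissue the list's median rho was 0.11, against 0.18 for all genes. In that pair 5 of the 14 were positive without the 9 animals whose muscle library stood apart, against 2734 of the 7603 genes. Without the 10 animals in doubt 3 of the 14 were, against 2394. DNAJA1, a co-chaperone of HSP70, spanned 53.0, 131 and 214 CPM in liver, 19.96, 51.6 and 100.1 CPM in muscle and 69.0, 146 and 254 CPM in adipose tissue, with a rho of 0.45, 0.48 and 0.46. AHSA1, which activates HSP90, and FKBP4, an HSP90-bound immunophilin, were the others positive in all 3, with a smallest rho of 0.30 and 0.26. Glucocorticoid-responsive genes were near the gene-wide level as a list: 5, 8 and 7 of 16 were positive in the pairs and 3 in all 3, with a median mean rho of 0.15. FKBP5, an HSP90 co-chaperone induced through the glucocorticoid receptor, had 0.28, 0.50 and 0.31 (Spearman test over all genes, adjusted p = 0.022, 9.29e-06 and 0.0106), but -0.15 between liver and muscle in the 15 animals of batch 1. MT2A, a metallothionein, and DDIT4, an inhibitor of mTORC1 signalling, were the others positive in all 3, with a smallest rho of 0.36 and 0.39. KLF9, TSC22D3, ZBTB16 and PDK4, transcription factors, a leucine zipper protein and a pyruvate dehydrogenase kinase, were not shared in all 3. Their liver-adipose rho was 0.37, 0.044, 0.34 and 0.061, and PDK4 passed only between muscle and adipose tissue (0.46). Of 15 immediate early genes, which respond within minutes to stimulation, 3, 1 and 6 were positive in the pairs and 0 in all 3, with a median rho of 0.23 between muscle and adipose tissue. FOS, a subunit of AP-1, had 0.031, 0.054 and 0.23, and its partner JUN -0.11, -0.23 and 0.33.

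Interferon-stimulated genes were shared above the gene-wide share between liver and muscle and between liver and adipose tissue. Of 17 tested, 13, 12 and 7 were positive in the pairs, 5 in all 3 and 0 were called in no pair, with a median mean rho of 0.26. Of all genes 37, 56.4 and 36% were positive in the pairs, 18.8% in all 3, and 26.3% were called in no pair. All 3 pairs were positive for 3 of the 17 without the 10 animals in doubt, with a median of 0.30, against 14.8% of all genes. STAT2, a transcription factor of the interferon response, spanned 69.8, 137 and 264 CPM in liver, 6.8, 15.9 and 43.0 CPM in muscle and 29.6, 72.3 and 133 CPM in adipose tissue. Its rho was 0.44, 0.55 and 0.53, with 0.18, 0.30 and 0.11 in batch 1 and 0.46, 0.58 and 0.60 in batch 2. MX1, an antiviral GTPase named whatever its result, spanned 13.02, 48.2 and 180.5 CPM in liver, 1.6, 3.92 and 18.4 CPM in muscle and 24.7, 64.3 and 298 CPM in adipose tissue. It was positive in every pair, with a rho of 0.40, 0.54 and 0.30 and adjusted p-values of 5.90e-04, 1.22e-06 and 0.012 (Spearman test over all genes). IFIT3, another antiviral gene, had 0.42, 0.35 and 0.33. IFI44L passed in the pairs with liver, at 0.32 and 0.44, but had 0.035 between muscle and adipose tissue. Of 7 antigen presentation genes tested, 7 were positive between liver and adipose tissue and 2 in all 3: TAP1, which carries peptides into the endoplasmic reticulum, with a smallest rho of 0.35, and ERAP1, which trims them, with 0.32.

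Fatty acid synthesis genes were shared mainly between liver and adipose tissue, and fatty acid oxidation between liver and muscle. Of 14 lipogenesis genes, 12 were positive between liver and adipose tissue (56.4% of all genes were), against 4 between liver and muscle and 6 between muscle and adipose tissue. The median rho was 0.44, 0.11 and 0.19 in that order. SREBF1, the transcription factor that drives fatty acid synthesis, spanned 30.9, 59.6 and 1081 CPM in liver, 10.0, 33.1 and 88.4 CPM in muscle and 42.2, 182 and 1664 CPM in adipose tissue. Its order of animals was shared by all 3 tissues, with 0.55, 0.62 and 0.57 (r = 0.50, 0.58 and 0.54 without the 2 farthest animals). FASN, the fatty acid synthase, spanned 17.4, 74.2 and 4526 CPM in liver and 79.3, 2872 and 37580 CPM in adipose tissue. Its muscle values fell into 9 higher and 83 lower animals, and within the 83 the liver-adipose rho was 0.56, the liver-muscle rho 0.17 and the muscle-adipose rho 0.22. SCD, the stearoyl-CoA desaturase, fell into 81 higher and 11 lower animals in liver, with a liver-adipose rho of 0.54 within the 81. Of 14 genes of cholesterol synthesis and uptake, 2, 5 and 4 were positive in the pairs, each below the 37, 56.4 and 36% of all genes. SREBF2, the master regulator of cholesterol synthesis, and LSS, which forms lanosterol, were positive in all 3 over both batches, at 0.26 and 0.25 between liver and muscle, but none of the list was so in batch 2 alone, where the 2 genes had 0.19 and 0.19 in that pair.

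Of 21 fatty acid oxidation genes, 15 were positive between liver and muscle (37% of all genes were), with a median rho of 0.29. Between liver and adipose tissue 4 were, with a median of -0.070, and 3 between muscle and adipose tissue (56.4 and 36% of all genes were). The list's median mean rho over the 3 pairs was 0.048. With the first 10 principal components of each tissue removed it was 0.16, with 21 of 21 above 0, against 0.14 for all genes. In the 78 animals with all 6 libraries it was 0.036 at baseline and 0.16 at 2 years. Between liver and muscle 10 of the 21 were positive without the 9 animals whose muscle library stood apart and 9 without the 10 animals in doubt. Of the 7603 genes, 2047 and 2009 were positive in that pair in these settings. CPT1A, which admits long-chain fatty acids to mitochondria, was positive in all 3 pairs, with 0.54, 0.29 and 0.59. Its levels spanned 7.81, 104 and 629 CPM in liver, 2.29, 8.77 and 18.0 CPM in muscle and 17.6, 65.8 and 112 CPM in adipose tissue. SLC25A20, the carnitine carrier of the same pathway, was the other gene positive in all 3. CPT2, HADHA and ETFDH, a carnitine acyltransferase, a subunit of the trifunctional protein and an electron transfer enzyme, named after their values were seen, were called negative between liver and adipose tissue, at -0.33, -0.34 and -0.38. The same genes had 0.30, 0.41 and 0.54 between liver and muscle. ACAA2, a thiolase of the last step that was picked for its liver-muscle rho, was positive between liver and muscle (0.53), with -0.20 between liver and adipose tissue.

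Lists of cell machinery differed in which pairs they shared. Of 29 oxidative phosphorylation genes, 15, 11 and 13 were positive in the liver-muscle, liver-adipose and muscle-adipose pairs and 7 in all 3, against 37, 56.4, 36 and 18.8% of all genes. Without the 10 animals in doubt, the liver-muscle counts were 7 of 29 for this list, 7 of 30 for the proteasome and 6 of 41 for cytosolic ribosomal proteins, and that of all genes 2009. NDUFB3, a subunit of complex I, had 0.59, 0.54 and 0.47, and ATP5MC1, a subunit of the ATP synthase ring, 0.47, 0.45 and 0.45. Of 35 mitochondrial ribosomal proteins, 16, 20 and 15 were positive and 6 in all 3, led by MRPL2 with a smallest rho of 0.50. Cytosolic ribosomal proteins were strongly shared in a single pair: 33 of 41 were positive between liver and adipose tissue, against 11 in each other pair and 9 in all 3. In batch 2 alone, where no library lacked RPS12, 41 of 41 were positive between liver and adipose tissue (53.4% of all genes were), 10 were positive in all 3, and the median mean rho was 0.27, against 0.17 over both batches. RPL35, of the large subunit, had 0.61, 0.65 and 0.61, and RPS9, of the small subunit, a smallest rho of 0.37. RPS25 fell into 86 higher and 6 lower animals in liver, the 6 all of batch 1. Of 30 proteasome genes 12, 16 and 5 were positive and 4 in all 3, among them PSMA2, PSMA5 and PSMA7 of the core particle. Of 18 splicing kinases, L-type cyclins and SR proteins, 14, 12 and 6 were positive and 5 in all 3. CLK1, a kinase of splicing factors, was at 0.36, 0.36 and 0.35, and CCNL2, an L-type cyclin, at 0.39, 0.55 and 0.33, but at -0.17, -0.14 and 0.10 within batch 1. The 9 muscle libraries that stood apart were high for this list, and without those animals 4 of the 18 were positive between liver and muscle and 1 in all 3. Of the 7603 genes, 2047 and 1228 were so without those animals. Of 19 genes of endoplasmic reticulum stress and folding, 3, 12 and 6 were positive and 2 in all 3, the chaperones HSP90B1 and DNAJB11. The list was thus well below the gene-wide 37% between liver and muscle and slightly above the 56.4% between liver and adipose tissue. It was slightly below the 36% between muscle and adipose tissue and below the 18.8% in all 3. Antioxidant genes had 2, 6 and 3 of 14 positive and 0 in all 3, and of 7 glutathione S-transferases GSTZ1, which also degrades tyrosine products, was positive in all 3.

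Endothelial, fibroblast, smooth muscle and skeletal myocyte markers were positive below the gene-wide share in the pairs with liver. Between muscle and adipose tissue, endothelial and fibroblast markers were above that share, and smooth muscle and skeletal myocyte markers below it. Of all genes 37, 56.4 and 36% were positive in the liver-muscle, liver-adipose and muscle-adipose pairs, and 18.8% in all 3. HBB, the beta globin gene of red cells and the only one of 11 erythroid markers to pass the level filter, spanned 3.83, 35.5 and 359 CPM in liver, 3.13, 90.4 and 2910 CPM in muscle and 99.3, 818 and 7106 CPM in adipose tissue. Adipose tissue held the most. Its rho was 0.36, 0.54 and 0.38 (Spearman test over all genes, adjusted p = 0.00258, 1.10e-06 and 0.00127), and 0.10, 0.37 and 0.14 at 2 years. Macrophage, T and NK cell, B and plasma cell and neutrophil markers all fell below the filter in at least 1 tissue, with 0 tested. Of the endothelial markers 6 of 11 were positive between muscle and adipose tissue (36% of all genes were), against 2 between liver and muscle and 1 between liver and adipose tissue, and EGFL7, a protein secreted by endothelium, was positive in all 3. Without the 10 animals in doubt, 4 of the 11 were positive between muscle and adipose tissue, against 2394 of the 7603 genes. Of 12 fibroblast and matrix genes 3, 3 and 5 were positive, and COL6A2, a collagen VI chain, and DCN, the proteoglycan decorin, were so in all 3. Smooth muscle markers had 0, 0 and 1 of 7 positive, and the contractile kinase gene MYLK was called negative between liver and adipose tissue (-0.35). Skeletal myocyte markers had 1, 0 and 1 of 11. Only 3 adipocyte markers, 3 hepatocyte markers, 2 cell cycle genes and 1 mesothelium marker passed the filter, and 0 of these were positive in all 3.

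**Figure D3:**
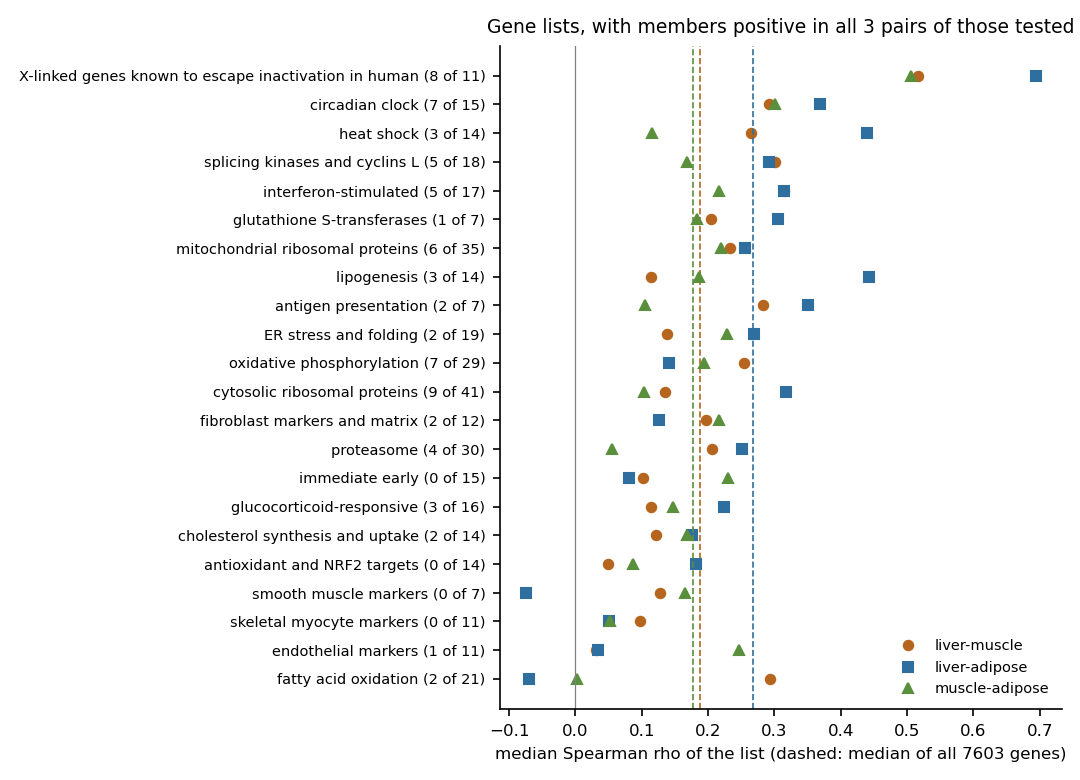
Median Spearman rho of each gene list with at least 7 tested members (x axis) for the 3 tissue pairs (marker shape and colour), with dashed lines at the medians of all 7603 genes and, beside each list name, members positive in all 3 pairs of those tested. The X-linked escape genes (8 of 11) and the circadian clock (7 of 15) lie to the right of the lines, and fatty acid oxidation is high only between liver and muscle (0.29, against -0.070 between liver and adipose tissue).

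Among the named genes without separate clusters, 186 of 252 correlations passed the Spearman threshold. Most of these genes were chosen by their rho, so how these 186 varied with the coefficient, the animals and the batch is a description. Pearson's r lay within 0.13 of rho, with a median distance of 0.026. Leaving out the 2 animals farthest from the median of the first tissue of a pair moved r by at most 0.12 and changed no sign. Animals far out in the second tissue alone were not left out. Of the 186, all had the same sign within batch 2, and 171 within batch 1. The other 15 belonged to CCNL2, DNAJB11, EGFL7, FKBP5, HSP90B1, NDUFB3, NDUFS3, PSMA5, PSMA7 and RPS9.

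Some genes passed the Spearman threshold in a single pair of tissues. They were picked as the largest of these in each pair, so only the later biopsies give values that the choice did not use. Between liver and muscle these were PHYH, the first enzyme of peroxisomal phytanic acid oxidation, RAB30, a Golgi GTPase, FAM20B, a kinase of proteoglycan synthesis, and ACAA2. PHYH spanned 137, 368 and 588 CPM in liver, 101, 221 and 363 CPM in muscle and 58.7, 93.7 and 166 CPM in adipose tissue, with 0.57 between liver and muscle, 0.057 between liver and adipose tissue and 0.068 between muscle and adipose tissue. At 2 years on HCHF the liver-muscle rho was 0.30 for PHYH, 0.27 for RAB30, 0.37 for FAM20B and 0.61 for ACAA2. Between liver and adipose tissue they were CEP57L1 and C2CD3, proteins of centrosome and centriole, CDK11B, a kinase that pairs with L-type cyclins, and PPP2R2D, a regulatory subunit of protein phosphatase 2A. CEP57L1 spanned 6.18, 11.5 and 26.3 CPM in liver, 5.77, 14.6 and 45.6 CPM in muscle and 9.31, 27.9 and 72.5 CPM in adipose tissue. Liver and adipose tissue of an animal matched closely (0.83), while muscle had 0.22 with liver and 0.18 with adipose tissue, and the liver-adipose rho was 0.82 at 2 years. In the same biopsies at 2 years it was 0.56 for CDK11B, 0.59 for C2CD3 and 0.46 for PPP2R2D. Between muscle and adipose tissue they were ADAMTS13, the protease that cleaves von Willebrand factor, FCN3, a lectin of the complement system, SLC38A2, a transporter of neutral amino acids, and CABLES2. ADAMTS13 spanned 1.04, 5.31 and 45.3 CPM in muscle and 2.8, 10.6 and 32.0 CPM in adipose tissue, with 0.59 between them, 0.16 between liver and muscle and 0.13 between liver and adipose tissue. At 2 years the muscle-adipose rho was 0.65 for ADAMTS13, 0.51 for FCN3, 0.22 for SLC38A2 and 0.41 for CABLES2, while ADAMTS13 also had 0.46 between liver and muscle. A missed threshold does not show that the other pairs were uncorrelated. The genes were chosen on these same baseline values, so their Pearson's r in the other pairs is a description. With a permutation p adjusted over the named genes under 0.05, liver-muscle r was positive for PPP2R2D (0.38), CDK11B (0.34), CEP57L1 (0.29), C2CD3 (0.28) and ADAMTS13 (0.27). Muscle-adipose r was positive for PPP2R2D (0.22) and CEP57L1 (0.24), and liver-adipose r was negative for ACAA2 (-0.23). Without the 2 animals farthest in the first tissue, the liver-muscle values were 0.29, 0.17, 0.30, 0.25 and 0.19. The muscle-adipose values were then 0.16 and 0.17, and that of ACAA2 -0.20, in the same order of genes.

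Opposite variation was rare at the filter of 5 CPM, with 26, 23 and 27 negative calls in the liver-muscle, liver-adipose and muscle-adipose pairs. The strongest 4 were picked for their size. RPP38, a subunit of ribonuclease P, spanned 6.63, 10.8 and 18.7 CPM in liver and 9.25, 16.1 and 24.1 CPM in muscle, with a liver-muscle rho of -0.51. MPC1, a subunit of the mitochondrial pyruvate carrier, spanned 28.5, 71.2 and 254 CPM in liver and 24.8, 50.7 and 269.8 CPM in adipose tissue, with a liver-adipose rho of -0.46. ACSL1, which activates long-chain fatty acids, spanned 812, 1722 and 3383 CPM in liver and 155, 785 and 3619 CPM in adipose tissue, with -0.42, and NIPSNAP2, a mitochondrial protein, had -0.43 between liver and muscle. Animals high in one tissue thus tended to be low in the other. In batch 2 alone the values were -0.46, -0.41, -0.38 and -0.46 for RPP38, MPC1, ACSL1 and NIPSNAP2. At 2 years on HCHF they were -0.23, -0.40, -0.073 and -0.10 for the same 4, and MPC1 was the nearest to its baseline value. With the first 10 principal components of each tissue removed, an alternative chosen after seeing the data, RPP38 had -0.48 and MPC1 -0.054.

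Variation between animals was widest in muscle, with the 9 muscle libraries that stood apart on the first principal component included. In liver and adipose tissue 0 libraries stood apart in this way, and the part of the 9 in the spread was not tested. The median SD between animals beyond counting error was 0.29 on the log2 scale in liver, 0.38 in muscle and 0.25 in the adipose biopsies, against a median counting SD of 0.071, 0.076 and 0.049. Genes with an SD of at least 0.5 numbered 884 in liver, 1938 in muscle and 699 in the adipose biopsies, and 294, 584 and 243 of them were called in no pair (26.3% of all genes were). The genes called in no pair with the largest SD were in part known transcripts of another of the 3 tissues. In liver they were MYH1, CKM, ACTA1 and MB, a myosin heavy chain, the muscle creatine kinase, skeletal actin and myoglobin, with 6 higher liver libraries, all of batch 2. CKM spanned 0, 0.2 and 856 CPM in liver, and the skeletal myocyte markers together reached 0.622% of a liver library's counts, with a median of 0.00117%; the part of muscle tissue in these libraries was not tested. In muscle they were ALB, SERPINA1 and RBP4, plasma proteins made by hepatocytes, and FOS. ALB spanned 0.302, 2.9 and 2136 CPM in muscle, with 8 higher libraries, all of batch 2, and hepatocyte markers together reached 0.519% of a muscle library's counts, with a median of 0.000834%. FOS spanned 0.811, 18.2 and 379.9 CPM in muscle, and its SD beyond counting error was 2.09 there, 1.37 in liver and 1.36 in adipose tissue. In adipose tissue the genes included LINGO4, a leucine-rich repeat membrane protein, PFKFB1, a fructose 2,6-bisphosphate enzyme, and FOS. PFKFB1 spanned 1.08, 32.6 and 203 CPM in adipose tissue. Within adipose tissue, the rho between the 2 visits was 0.59 for PFKFB1, 0.39 for LINGO4 and -0.05 for FOS.

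**Figure D4:**
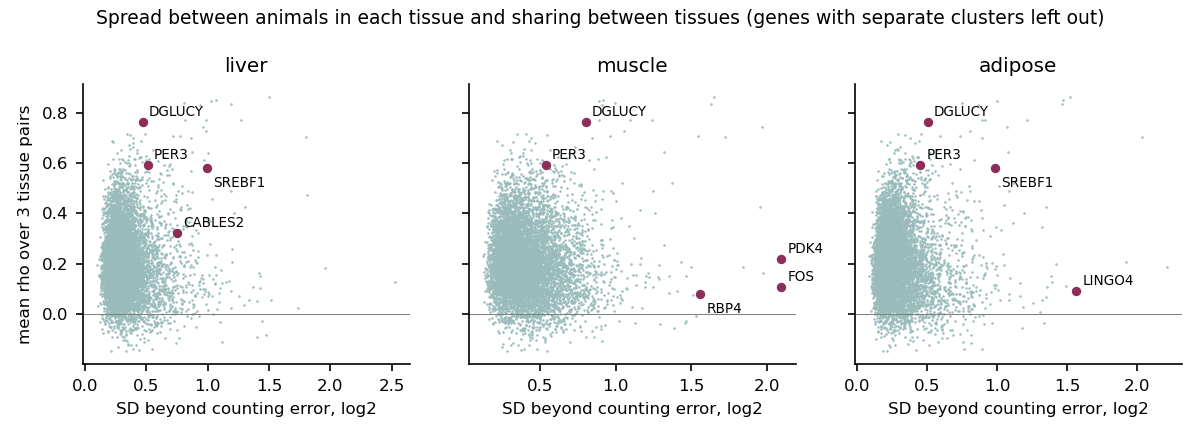
SD between animals beyond counting error of batch-centred log2 CPM (x axis) against the mean Spearman rho over the 3 tissue pairs (y axis), 1 panel per tissue and 1 point per gene, with the 147 genes that have separate clusters left out. Wide spread did not go with one level of sharing: in muscle, DGLUCY (SD 0.80) lies near the top and FOS (SD 2.09) far to the right and low.

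Whether sharing belonged to a visit or lasted was examined in the 78 animals with all 6 libraries, by the mean Pearson r between 2 tissues sampled at the same visit and between 2 tissues sampled at different visits, with the visits swapped at random within an animal and tissue in the permutation test. The 393 genes of the lists and the genes named whatever their result were tested (threshold: adjusted p under 0.05). Past it, r was higher at the same visit for 139 (35.4%) and lower for 0. The medians were 0.21 at the same visit and 0.14 across visits. Counts of genes higher at the same visit, here and below, are of those past this threshold. For 11 of 15 clock genes (73.3%) the same-visit r was higher, with medians of 0.33 at the same visit and 0.12 across visits. ARNTL had 0.47 at the same visit and 0.10 across visits (permutation test, adjusted p = 1.97e-04), DBP 0.47 and 0.16, and PER3 0.51 and 0.24, at the same adjusted p. HLF, a clock output factor, had 0.30 and 0.30 (adjusted p = 0.961). Of 14 heat shock genes 11 (78.6%) were higher at the same visit, with medians of 0.28 and 0.097, and DNAJA1 had 0.48 and 0.11 (adjusted p = 1.97e-04). SREBF1 had 0.55 at the same visit and 0.19 across visits, CPT1A 0.51 and 0.16, and DDIT4 0.52 and 0.15, at the same adjusted p. For lipogenesis 8 of 14 were higher at the same visit, for glucocorticoid-responsive genes 8 of 16.

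In other lists the values across visits were closer to those at the same visit. Interferon-stimulated genes had medians of 0.30 at the same visit and 0.24 across visits, with 6 of 17 (35.3%) higher at the same visit. STAT2 had 0.46 and 0.46 (adjusted p = 0.826), and MX1 0.49 and 0.44 (adjusted p = 0.234). The X-linked escape genes had 0.55 at the same visit and 0.53 across visits, with 4 of 11 higher. Cytosolic ribosomal proteins had 0.15 at the same visit and 0.16 across visits. FKBP5, of the glucocorticoid-responsive list, was higher at the same visit, with 0.55 there and 0.41 across visits (permutation test, adjusted p = 0.00145). Immediate early genes had medians of 0.095 at the same visit and 0.053 across visits. Differences between lists in this measure were not tested.

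**Figure D5:**
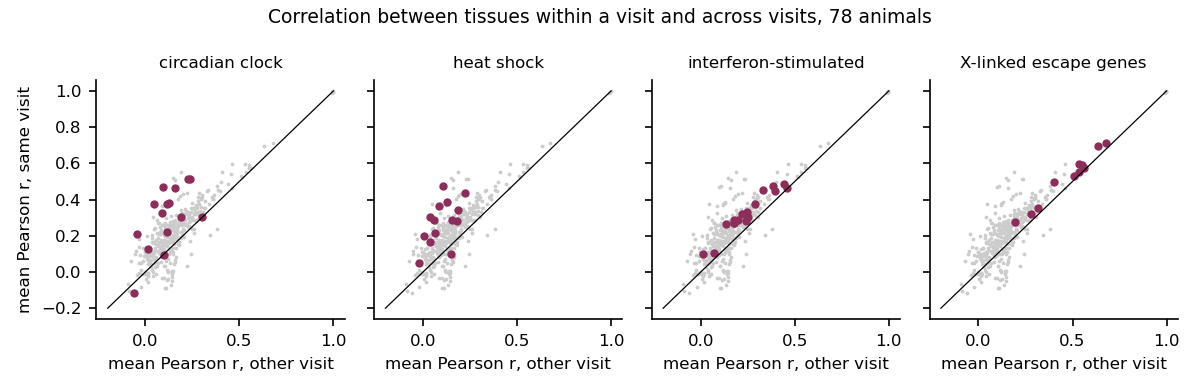
Mean Pearson r between tissues at the same visit (y axis) against that across visits (x axis) in 78 animals, with the genes of the list named above each panel in dark red, the other genes of the 393 in grey, and a line where both are equal. Clock and heat shock genes lie mostly above the line, with medians of 0.33 against 0.12 and 0.28 against 0.097, and X-linked escape genes lie along it, at 0.55 against 0.53.

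At 2 years on HCHF, 1328 of the 7603 genes (17.5%) were positive in all 3 pairs, and 823 of these were also positive in all 3 at baseline, which is 62% of the 2-year genes and 57.5% of the baseline genes. The diet and the visit changed together, and these are the same animals. By list, all 3 pairs were positive at 2 years and at baseline for 5 and 7 of 15 clock genes, for 8 and 5 of 17 interferon-stimulated genes and for 6 and 3 of 14 heat shock genes. A test of the mean r at 2 years on HCHF against that at baseline on LCLF passed for 0 of 393 genes (permutation test, 22 at an unadjusted p under 0.05). The smallest adjusted p was 0.177, for ZBTB16, with a mean r of 0.52 on HCHF and 0.15 on LCLF, and FKBP5 had 0.66 on HCHF and 0.44 on LCLF (adjusted p = 0.856). Within a tissue the median rho between visits was 0.38 in liver, 0.51 in muscle and 0.38 in the adipose biopsies, against medians between tissues of 0.21 at 2 years, 0.20 at baseline and 0.15 across visits.

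Part of the sharing lay along a few axes of variation. The first principal component held 15.7% of the variance in liver, 38.4% in muscle and 25.5% in the adipose biopsies. Across animals the first liver component had a rho of 0.73 with the second muscle component and -0.66 with the first adipose component, and these had -0.72 with each other, given as a description. All 3 followed the Y-linked genes, whose median correlation with them was 0.90, 0.96 and -0.84. Other lists followed some of them too. By the same median, the first liver component had -0.62 with heat shock and -0.59 with fatty acid oxidation genes. The first adipose component had -0.71 with lipogenesis genes, -0.69 with adipocyte markers and -0.67 with fatty acid oxidation genes. The second muscle component had -0.18 with fatty acid oxidation genes and 0.45 with endothelial markers. The components came from values not scaled per gene, so genes of wide spread weigh more on them. RPS4Y1 had an SD beyond counting error of 5.14 in liver, against a median of 0.29 for all genes. Following the Y-linked genes was thus partly built in. The first muscle component had 0.26 and -0.19 with the first liver and adipose components. With the Y-linked level as a covariate, 1471 genes were positive in all 3 pairs, against 1431. With the first 10 components of each tissue removed, 501 genes (6.59%) were positive in all 3 pairs, 356 of them also without the removal, and the liver-adipose median fell to 0.17. Interferon-stimulated genes had 5 of 17 positive in all 3 with and without the removal, clock genes 2 with and 7 without it, and heat shock genes 0 with and 3 without it. DGLUCY had 0.67, 0.74 and 0.72 after the removal, and PER3 0.36, 0.49 and 0.50.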

How the data were processed

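RNA of frozen biopsies was sequenced with single-end reads of 50 bases in batch 1 (16 animals) and paired-end reads of 50 bases in batch 2 (83 animals), with another library kit in each, per the labels' protocols. FastQC, STAR 2.7.7a and featureCounts are named in the submitters' processing notes. Build, annotation and strand setting were not given in the sources used here. Whole-number read counts per gene, not normalized, were deposited by the authors, with 570 libraries kept by their quality control. Batch 1 was taken as the 16 animals that come first in the series, which the first axis of mean expression separated (gap of 12.06, next 8.857). Near-identical copies, such as ribosomal protein genes and GAPDH, and overlapping or antisense genes are uncertain.

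Counts were scaled by TMM within tissue and visit (edgeR 4.0.16, R 4.3.3), turned into log2 CPM with a prior count of 2 and centred within batch. Spearman correlations (Python 3.11.15, scipy 1.17.1) were tested by the t distribution with 3 degrees of freedom taken off the number of animals, adjusted by Benjamini-Hochberg over all genes and pairs at 0.05. Named genes and visits were tested with 100000 permutations, of animals within batch and of visits within animals (two-sided). For named genes, the 2 farthest animals were those farthest from the median of the first tissue of a pair. Counting error was taken as Poisson, which covers counting alone. A gene with a gap of at least 0.5 on the log2 scale and at least 6 animals on each side has separate clusters (147 genes). The code was tested on simulated data. No motif search was run.

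The members, the 32 lists and the named genes' rule were chosen with earlier results of these data known. The rule named anchor genes whatever their result, the 12 genes with the largest smallest rho, 4 per pair called there alone, 4 per tissue of largest spread called in no pair, the 4 most negative, and up to 3 per list positive in all 3, leaving out LOC names; some genes that the rule chose are not reported here. Symbols matched RefSeq for 33824 genes. Alternatives were other scaling, prior count, coefficient, filters, batches, covariates and libraries, an animal block in limma 3.58.1, and 3 chosen after seeing the data. Each library is 1 biopsy of 1 animal.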

Additional observations from a re-analysis of the deposited data

How the results depend on the processing

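Of 181 summary values under 19 settings, 143 kept their side of the threshold and stayed within 1.5 times the count or within the spread of the medians, and 0 reversed. RLE size factors, totals without TMM, a prior count of 0.5, Pearson's r, batch 2 alone, the library total or the erythroid level as a covariate, the libraries the authors left out and the removal of the 9 animals whose muscle library stood apart moved none beyond those limits. The number of genes tested, the counts and the shares all changed with the filter. At a mean of 1 CPM (11172 genes) 3489 genes were called in no pair, and 17.2% were positive in all 3, against 18.8% at 5 CPM. At 20 CPM (3207 genes) the positive calls were 1302, 1908 and 1157 for liver-muscle, liver-adipose and muscle-adipose, with 667 (20.8%) in all 3, 37 negative and 758 in no pair. With no filter (25911 genes) the positive calls were 7047, 8789 and 6716, with 3125 (12.1%) in all 3, 1920 negative and 11271 in no pair. The medians there were 0.13, 0.17 and 0.13, and 0.13 for the mean. Negative calls were thus rarer at the filter of 5 CPM, at 75 of 7603 genes (0.986%), than without a filter. Without centring, 2176 genes were positive in all 3. The 15 animals of batch 1 alone gave 36, 56 and 33 positive calls, 4 in all 3, 3 negative, 7489 in no pair and a liver-adipose median of 0.19. Fewer animals limit what that setting can call. Negative calls numbered 44 with the Y-linked covariate and 47 without the 10 animals in doubt, against 75. With 5 components removed, 1785 genes were positive between liver and muscle, 20 negative and 3301 in no pair. With 10 removed the values were 1328, 1596 and 1235 for the pairs, 501 in all 3, 10 negative and 4940 in no pair, with a liver-adipose median of 0.17 and 0.14 for the mean. The cause of these changes was not tested. With the animal number as a replicate block, which the labels set, limma's duplicateCorrelation gave a median of 0.21, against a median mean rho of 0.20.

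Of 612 values of 35 genes, 554 kept their call and 4 smallest rho reversed: FKBP5 in batch 1 alone at -0.15, KDM6A with the Y-linked covariate at -0.14, and KDM5D at -0.0099 and USP9Y at -0.013 with 5 components removed. Of the 47 that lost their call, 21 did so in batch 1 alone and 12 with 10 components removed. HBB's smallest rho was 0.14 with the erythroid level, of which HBB is a member, as a covariate. Depth limits low genes: at 5 CPM the library with 6506614 counts holds few reads of a gene.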

Other observations

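Chromosome 20, singled out after the values were seen, had 144 of its 455 tested genes (31.6%) positive in all 3 pairs, against 18.8% of all genes. On chromosome Y, 8 of 11 tested genes (72.7%) were. The 147 genes with separate clusters included 99 that had them in batch 2 alone as well, 27 of these with LOC names.

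Erythroid markers together held a median of 0.00346% of liver counts, 0.00899% of muscle counts and 0.0849% of adipose counts, and at most 0.0327%, 0.295% and 0.736% of those of 1 library. The share of a liver library's counts on adipocyte markers stayed between 0.0147 and 0.0509%. In adipose tissue the skeletal myocyte markers reached 2.51% of 1 library's counts, with a median of 0.0147%, and hepatocyte markers reached 0.193%, with a median of 0.00881%.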
